A study of Homo sapiens with 9 samples.

Results

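The genes described here are the matrix metalloproteinases (MMPs), the secreted ADAMTS proteases and their inhibitors, the TIMPs, in 3 human mammary epithelial cell lines. The members are the gene rows whose symbol is MMP, ADAMTS or TIMP followed by a number, 47 of 62666 rows: 24 MMPs, 19 ADAMTS genes and 4 TIMPs. MCF10A is an established, non-tumorigenic breast epithelial line. MCF10AT1 derives from it and carries an activated HRAS, and MCF10Ca1a derives from that lineage and forms carcinomas in mice. Each line was sequenced in 3 libraries of polyadenylated RNA, with no treatment. MCF10A and MCF10Ca1a were grown with 5% horse serum and MCF10AT1 with 2.5%, so serum and line cannot be told apart for MCF10AT1. All media also held insulin, hydrocortisone, epidermal growth factor and cholera toxin. Each stage is represented by 1 line, and nothing in the labels says that the libraries of a line came from separate cultures, so the p-values measure only the spread between these libraries, which may be technical.

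MMPs are zinc-dependent endopeptidases that are made as inactive precursors and cut collagens, laminins, proteoglycans and other proteins outside the cell. They are secreted or, in the membrane-type group, held at the cell surface. ADAMTS enzymes carry thrombospondin repeats that tie them to the matrix, and cut proteoglycans such as versican, procollagens and von Willebrand factor. TIMPs bind the active site of these enzymes, and in mammary tissue the balance between proteases and TIMPs is known for its part in duct branching, involution and invasion.

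The most abundant members were shared by the 3 lines, and the clearest change among them was a fall of the inhibitors. TIMP1, TIMP2 and TIMP3 were lower in MCF10Ca1a than in MCF10A, by 2.05-fold to 6.20-fold. MMP14, the most abundant protease, was lower there too, by 1.82-fold, nearly as much as TIMP2. In bulk RNA, fewer cells that express a gene and less RNA per cell cannot be told apart. The gelatinase genes fell at different steps: MMP9 was nearly lost in MCF10AT1, and MMP2 fell in MCF10Ca1a. MMP7 rose at both steps. Among ADAMTS genes, ADAMTS7 and ADAMTS12 fell and ADAMTS13 rose in MCF10Ca1a. Fold changes come from edgeR's quasi-likelihood test on estimated read counts, and a gene is called where its p, adjusted by Benjamini-Hochberg over all 17910 genes tested, is under 0.05.

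Libraries held 64.23 to 69.51 M estimated counts (M for mega) in MCF10A, 62.9 to 68.11 M in MCF10AT1 and 32.93 to 35.24 M in MCF10Ca1a, so low counts are less precise in MCF10Ca1a. All 9 mammary epithelial markers checked were detected in every line, with summed levels of 2529 to 3472 TPM (transcript abundance per length and depth) in MCF10A, 3600 to 4032 in MCF10AT1 and 4438 to 4579 in MCF10Ca1a. Within this list the basal keratins KRT14 (205, 38.8 and 4.78 TPM) and KRT5 (1423, 1632 and 420 TPM) were lowest in MCF10Ca1a. Other basal markers went the other way, with KRT17 (670, 742 and 1829 TPM), ITGB4 (168, 212 and 462) and TP63 (26.0, 16.2 and 31.1) highest there on average. EPCAM (40.1, 169.7 and 389.8 TPM), CDH1 (41.5, 37.2 and 231 TPM) and KRT18 (257, 554 and 693 TPM) were also highest in MCF10Ca1a. KRT8 was at 111, 449 and 442 TPM. The part of this marker difference in the members' changes was not tested. Markers of other cell types were also uneven. The 7 stromal markers summed to 6.43 to 7.23 TPM in MCF10A, 27.7 to 31.5 in MCF10AT1 and 1.94 to 2.33 in MCF10Ca1a, with COL1A2 and COL3A1 at 0 to 2 counts in every library. DCN averaged 3.61, 27.9 and 0.329 TPM in the 3 lines and COL1A1 3.06, 0.961 and 1.79 TPM, so DCN carried the sum in MCF10AT1. The 4 endothelial markers summed to 0.674 to 0.901, 0.868 to 1.32 and 15.6 to 20.8 TPM, most of it PECAM1, with KDR at 30 to 42, 23 to 32 and 0 to 1 counts, while CDH5 and VWF stayed at 3 counts or fewer in all 9 libraries. The 5 leukocyte markers summed to 18.5 to 26.2, 6.88 to 7.10 and 31.0 to 33.8 TPM, with CD68 at 10.8, 2.66 and 31.1 TPM and CD14 at 8.62, 3.68 and 0.205 TPM on average, PTPRC at 0 to 2 counts and CD3E at 0.

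Few of these genes were abundant. A mean of at least 1 TPM was reached by 11 of 47 members in MCF10A, 12 in MCF10AT1 and 9 in MCF10Ca1a, and at least 10 TPM by the same number, 5, in each line. TIMP1, MMP14, TIMP3, TIMP2 and MMP28 were those 5 in each line. In MCF10A their order by mean TPM was TIMP1 (1263 ± 201, SD, n = 3; levels and shares are given with their SD and log2 fold changes with their SE), MMP14 (113 ± 27.9), TIMP3 (72.9 ± 13.9), TIMP2 (39.0 ± 8.53) and MMP28 (38.2 ± 5.46), and the last 2 did not differ beyond their spread. The order in MCF10Ca1a was TIMP1 (216 ± 6.85), MMP14 (77.8 ± 2.54), MMP28 (42.7 ± 2.16), TIMP3 (22.5 ± 0.563) and TIMP2 (20.5 ± 0.817), so MMP28 stood above TIMP3 and TIMP2 there. In MCF10AT1, TIMP1 (384 ± 28.2) and MMP14 (69.0 ± 0.799) again led, before TIMP3 (43.0 ± 1.59), MMP28 (35.6 ± 1.62) and TIMP2 (18.6 ± 0.324). MMP14 and MMP28 together made up 89.2%, 90.2% and 91.6% of the summed MMP level in MCF10A, MCF10AT1 and MCF10Ca1a.

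The comparison of the lines asks how the genes differ along the series from MCF10A to the tumour-forming line. Of the 47 members, 28 had enough reads to be tested: 15 MMPs, 10 ADAMTS genes and 3 TIMPs. In MCF10AT1 against MCF10A, 21 of the 28 (75%) were called, 7 higher and 14 lower, beside 61.6% of all genes tested (29.8% higher, 31.8% lower). In MCF10Ca1a against MCF10AT1, 23 were called, 10 higher and 13 lower, beside 78.4% of all genes (38.0% higher, 40.3% lower). In MCF10Ca1a against MCF10A, 22 were called, 6 higher and 16 lower, beside 80.9% (39.0% higher, 41.9% lower). The shares called, 75%, 82.1% and 78.6%, lay above that of all genes in the first and near it in the others. Changes of at least 2-fold were called for 12, 20 and 17 members in the 3 comparisons, or 42.9%, 71.4% and 60.7% of those tested, against 18.0%, 37.7% and 42.9% of all genes. The 12 in the first were 3 higher and 9 lower (all genes 9.36% and 8.64%), the 20 in the second 8 and 12 (18.2% and 19.5%), and the 17 in the third 3 and 14 (21.2% and 21.7%). The libraries of the lines compared did not overlap for 21, 24 and 23 members, and for 65.4%, 81.9% and 81.5% of all genes. The median log2 fold change of the members tested was -0.48, -0.17 and -0.96, and that of all genes 0, -0.04 and -0.05. By family, MCF10Ca1a against MCF10A had 5 MMPs higher and 6 lower, 1 ADAMTS gene higher and 7 lower, and 3 TIMPs lower. The comparisons share libraries, so their counts are not independent.

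**Figure D1:**
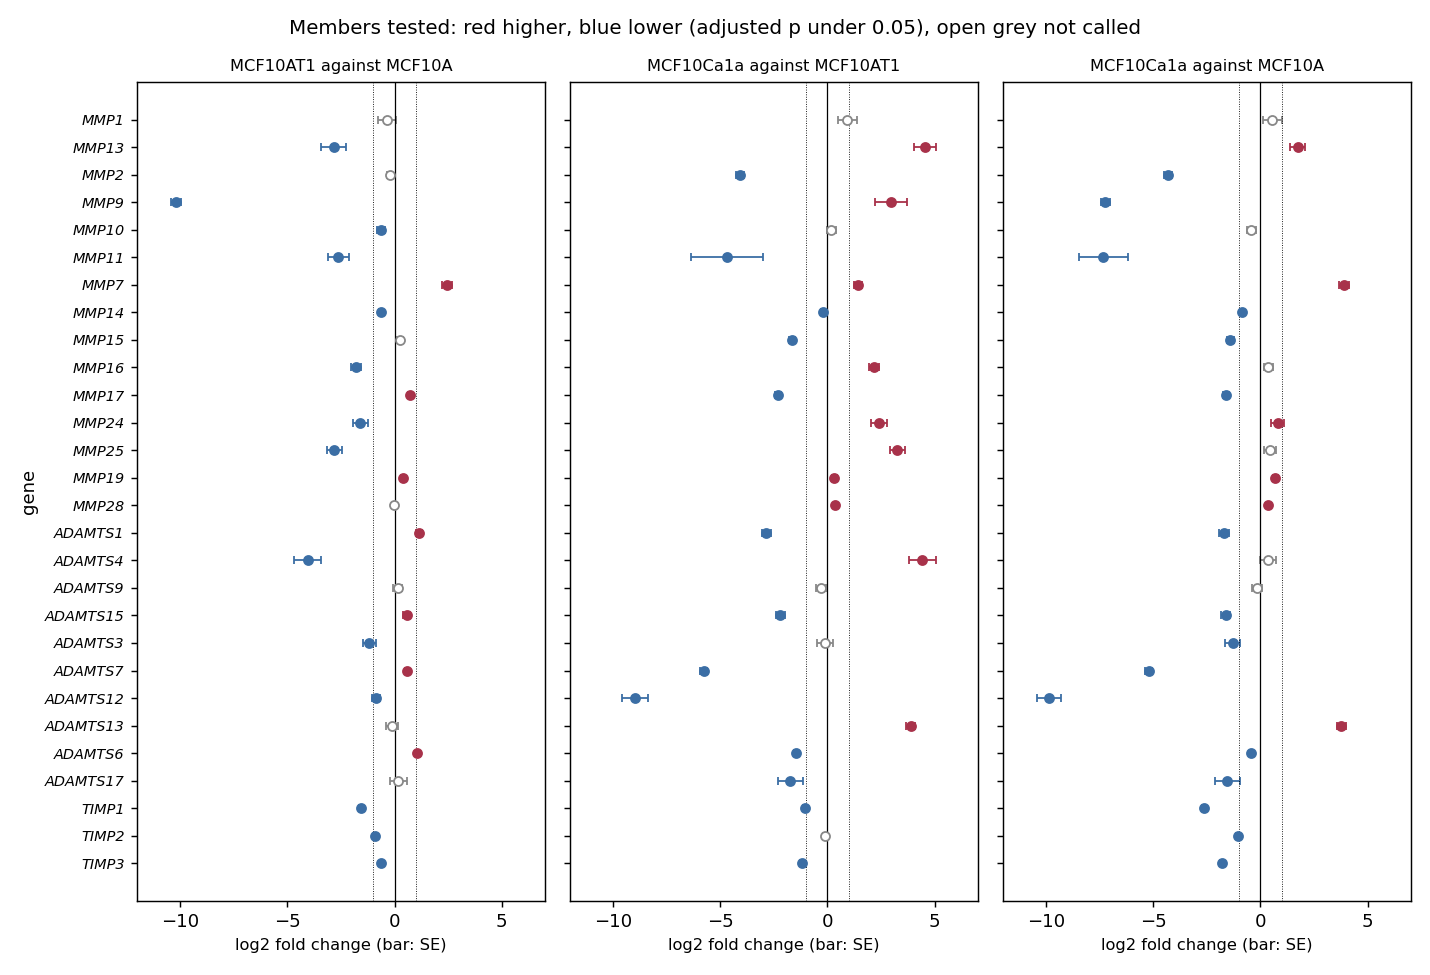
Log2 fold change (x axis, bar: standard error) of the 28 tested members (y axis) in the 3 comparisons; dotted lines mark 2-fold. TIMPs lie left of 0 in each panel of these count-based fits, although TIMP2 had the other sign on TPM in MCF10Ca1a against MCF10AT1; the points of MMP11 and ADAMTS12 against MCF10Ca1a, where both had 0 counts, depend on the fit and are not sizes.

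**Figure D2:**
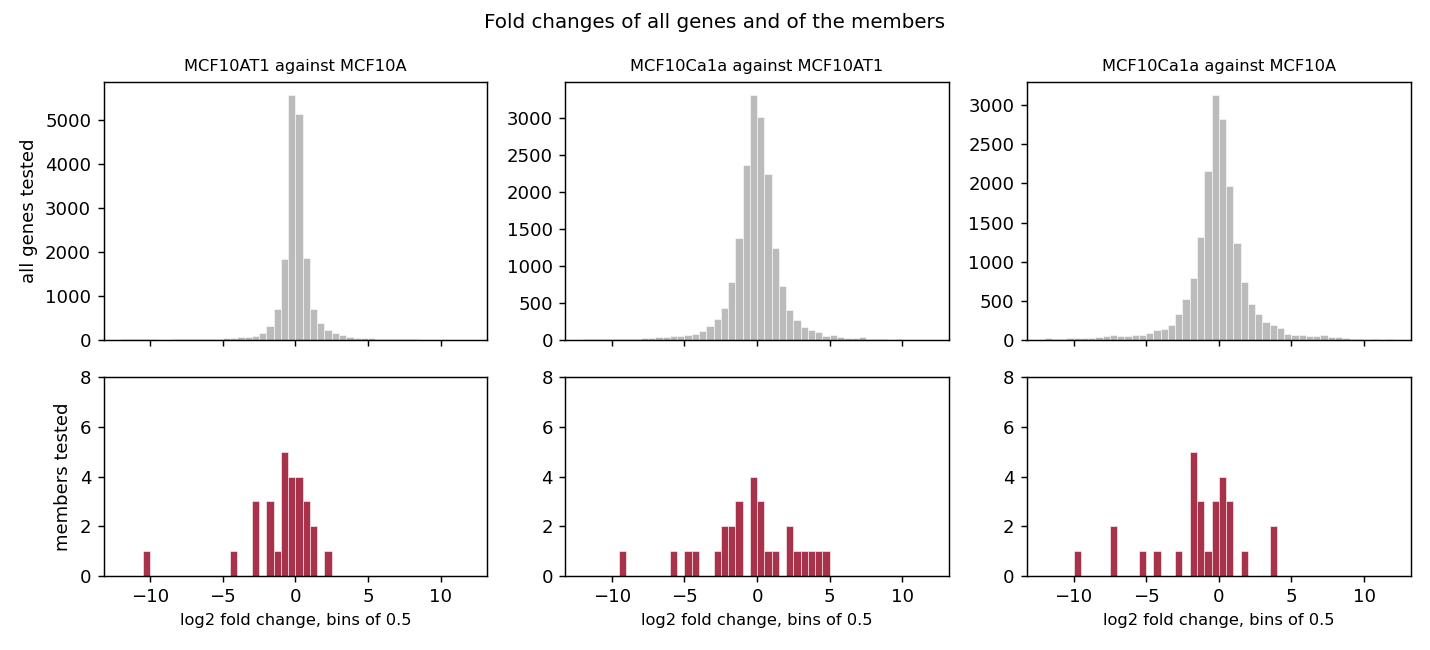
Number of genes (y axes) by log2 fold change in bins of 0.5 (x axis) for all 17910 genes tested (top) and for the 28 members tested (bottom). The members spread over both sides of 0, with MMP9 as the member furthest to the left in MCF10AT1 against MCF10A.

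Promoter sequence is shown for 4 members that moved together or against each other: MMP7, which rose at both steps, TIMP1 and TIMP3, which fell at both, and ADAMTS7, which was nearly lost in MCF10Ca1a. RefSeq promoter windows (GRCh38.p14) matched 27 of the 47 members, and the 250 bases before the RefSeq start were searched. Of these windows the bases that also lie before the GENCODE 29 gene start are printed, 5′ to 3′ on the gene's strand. Both strands were searched, and capitals mark each match. The AP-1 motif was searched as TGAGTCA. The TATA box was searched as TATAAA. The GC box, known for binding SP1, was searched as GGGCGG. The ETS motif was searched as CAGGAAG. The windows are chr11:102530754-102530997 (minus strand), chrX:47582186-47582312 (plus), chr22:32801455-32801700 (plus) and chr15:78811465-78811714 (minus).
MMP7: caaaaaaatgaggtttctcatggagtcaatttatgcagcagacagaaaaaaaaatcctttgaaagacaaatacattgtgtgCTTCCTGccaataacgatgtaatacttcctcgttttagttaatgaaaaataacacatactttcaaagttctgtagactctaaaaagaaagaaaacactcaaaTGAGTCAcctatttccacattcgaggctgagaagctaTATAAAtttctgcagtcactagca
TIMP1: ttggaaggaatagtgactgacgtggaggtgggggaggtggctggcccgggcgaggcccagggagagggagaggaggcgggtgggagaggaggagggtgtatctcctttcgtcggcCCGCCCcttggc
TIMP3: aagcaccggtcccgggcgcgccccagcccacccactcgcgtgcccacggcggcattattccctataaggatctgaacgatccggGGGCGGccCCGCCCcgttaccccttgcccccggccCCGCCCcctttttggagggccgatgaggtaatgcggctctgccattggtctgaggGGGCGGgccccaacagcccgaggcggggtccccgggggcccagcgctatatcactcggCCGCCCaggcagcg
ADAMTS7: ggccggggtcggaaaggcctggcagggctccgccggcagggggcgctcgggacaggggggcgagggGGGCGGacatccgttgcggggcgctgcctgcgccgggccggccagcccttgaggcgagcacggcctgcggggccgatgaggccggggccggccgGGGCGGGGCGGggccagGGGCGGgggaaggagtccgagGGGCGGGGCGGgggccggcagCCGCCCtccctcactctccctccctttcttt

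The MMP7 window holds 1 AP-1 match (67 bases before the start), 1 TATA box match (30 bases) and 1 ETS match (169 bases) and no GC box match, and 33.6% of its bases are G or C. The AP-1 motif was in 4.2% of all 35116 promoter windows and, among the 27 of these genes, in that of MMP7 alone. The MMPs without a window, and so not searched, were MMP1, MMP2, MMP3, MMP9, MMP12, MMP13, MMP16, MMP17, MMP19, MMP23A, MMP25 and MMP28. The same holds for ADAMTS1, ADAMTS4, ADAMTS5, ADAMTS8, ADAMTS9, ADAMTS15, ADAMTS16 and TIMP2. Whether MMP7 differs from those members in this motif was not tested. The TATA box was in 10.7% of all windows and in 7 of the 27, and the ETS motif in 10.5% and in 4, TIMP1 among them beyond the printed bases. The GC box was in 42.6% of all windows and in 19 of the 27, with 7 matches in the ADAMTS7 window, some of them overlapping, 5 in TIMP3 and 2 in the whole TIMP1 window. Windows of the chromosome 11 cluster, available for 5 genes, had a median of 34.4% G and C, against 70.8% in the other 22 and 58.0% in all windows. TIMP1 and TIMP3, which fell together, and ADAMTS7, which rose before it fell, all have GC-rich windows (64.8%, 72.4% and 80.8%). A match is a run of letters in this window, and no binding was measured here.

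TIMP1 is a secreted inhibitor of most MMPs and also binds the precursor of MMP9. It is annotated at chrX:47582313-47586789 (GENCODE 29, GRCh38), inside an intron of SYN1 on the other strand, which had at most 27 counts in any library. Its CPM (counts scaled to library size by TMM, not per length) was 691, 625 and 578 in the MCF10A libraries, 223, 215 and 197 in MCF10AT1, and 99.7, 98.6 and 107 in MCF10Ca1a. The 3 lines did not overlap, and the order was the same in every library. The level fell 2.98-fold in MCF10AT1 against MCF10A (log2 -1.57 ± 0.0729, SE, adjusted p 4.57e-10) and a further 2.08-fold in MCF10Ca1a against MCF10AT1 (log2 -1.06 ± 0.0732, adjusted p 9.93e-09). Against MCF10A the fall in MCF10Ca1a was 6.20-fold (adjusted p 9.56e-13). A single coding transcript, TIMP1-201, held 97.9%, 96.3% and 92.3% of the gene's TPM in the 3 lines. TIMP1 made up 91.9% of the summed TIMP level in MCF10A and 83.4% in MCF10Ca1a.

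TIMP3, the inhibitor that binds to the matrix and also blocks ADAMTS proteases and ADAM17, fell at both steps. TIMP3 CPM was 256, 218 and 200 in MCF10A, 149, 149 and 143 in the MCF10AT1 libraries, and 64.8, 62.2 and 66.1 in MCF10Ca1a. No library of a line overlapped with another line. The fall was 1.53-fold in MCF10AT1 against MCF10A (log2 -0.61 ± 0.0755, adjusted p 9.55e-06) and 2.28-fold in MCF10Ca1a against MCF10AT1 (log2 -1.19 ± 0.0782, adjusted p 5.61e-09), while its mean TPM went from 72.9 to 43.0 to 22.5. All TIMP3 reads were assigned to 1 transcript, and SYN3, which overlaps the locus on the other strand, had at most 187 counts.

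TIMP2, which with MMP14 forms the complex that activates the MMP2 precursor, fell at the earlier step alone. TIMP2 CPM was 111, 90.7 and 82.0 in MCF10A, 48.5, 50.3 and 51.1 in the MCF10AT1 libraries, and 45.8, 43.7 and 48.5 in MCF10Ca1a. MCF10A stood above both other lines in every library, while MCF10AT1 and MCF10Ca1a overlapped. The fall in MCF10AT1 against MCF10A was 1.89-fold (log2 -0.92 ± 0.0873, adjusted p 7.19e-07). In MCF10Ca1a against MCF10AT1 the log2 fold change was -0.12 (95% interval -0.34 to 0.10, adjusted p 0.235). That difference passed the threshold when MCF10A replicate 1 was left out of the fit (log2 -0.13, adjusted p 0.0262), with no filter on low counts (log2 -0.21, adjusted p 0.00376) or with only both lines in the fit (log2 -0.1, adjusted p 0.0441), and had the other sign on TPM (log2 0.13, adjusted p 0.373). TIMP4, the remaining inhibitor, had at most 1 count in any library and was not tested. MCF10A replicate 1 was the highest MCF10A library for TIMP1, TIMP2, TIMP3 and MMP14.

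Summed over the family, TIMP levels were 1614, 1339 and 1172 TPM in MCF10A, 470, 455 and 413 in the MCF10AT1 libraries, and 255, 254 and 268 in MCF10Ca1a. The summed MMP level was 169 ± 36.4 TPM in MCF10A, 116 ± 2.45 in MCF10AT1 and 132 ± 2.25 in MCF10Ca1a. The quotient of the TIMP sum over the MMP sum was 7.72, 8.36 and 8.49 in MCF10A, 4.01, 3.88 and 3.66 in the MCF10AT1 libraries, and 1.90, 1.94 and 2.07 in MCF10Ca1a. The libraries of the 3 lines did not overlap, and the means were 8.19, 3.85 and 1.97. In each pair of lines a two-sided exact permutation test of the quotient gave p = 0.10, the smallest that 3 libraries against 3 allow. The quotient is of transcript levels, not of protein or activity, and it rests mostly on TIMP1 and MMP14, whose own quotient was 11.3 ± 0.907, 5.57 ± 0.341 and 2.78 ± 0.101. On CPM, which is not per gene length, it was 2.47, 1.59 and 0.938, and with MMP14 left out of the MMP sum 24.4, 9.51 and 4.83. Both kept the order of the lines.

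**Figure D3:**
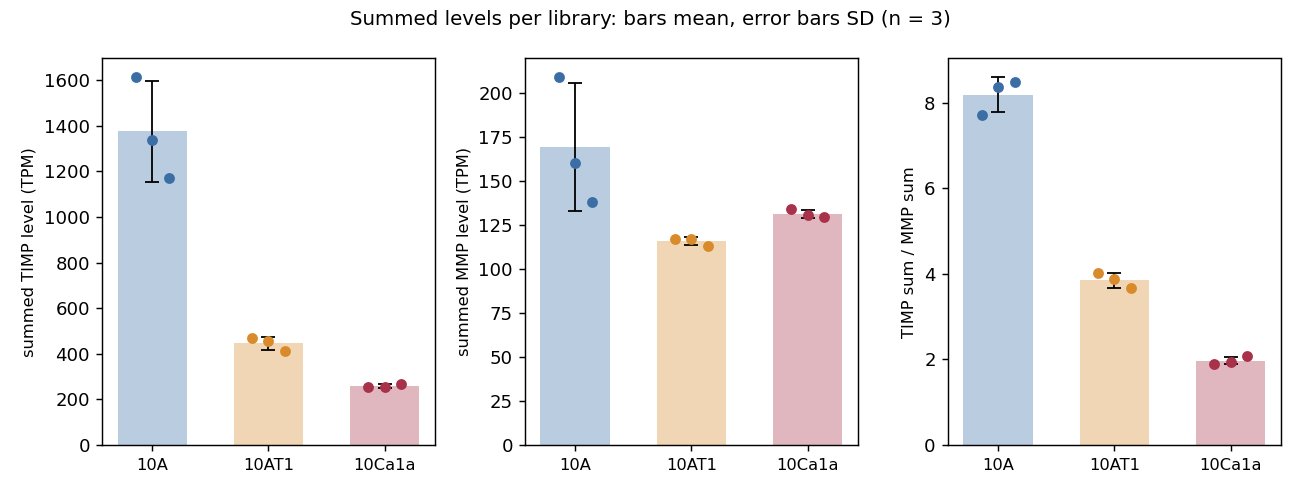
Summed TIMP level (left), summed MMP level (middle), both in TPM, and their quotient (right) for the lines MCF10A, MCF10AT1 and MCF10Ca1a (x axis); points are libraries, bars means and error bars SD. The quotient falls from a mean of 8.19 to 3.85 to 1.97 with no overlap between lines.

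Of the 6 membrane-type MMPs, all were tested, and they moved in different directions. MMP14 (chr14:22836557-22849027), the collagen-cutting protease of the cell surface that activates MMP2, was by far the most abundant. MMP14 CPM was 380, 306 and 275 in MCF10A, 210, 206 and 202 in the MCF10AT1 libraries, and 174, 171 and 182 in MCF10Ca1a. The MCF10A libraries lay above all others. The fall in MCF10AT1 against MCF10A was 1.55-fold (log2 -0.64 ± 0.0912, adjusted p 3.75e-05), and that in MCF10Ca1a against MCF10A 1.82-fold (log2 -0.87 ± 0.092, adjusted p 8.69e-07). In MCF10Ca1a against MCF10AT1 the log2 fold change was -0.23 ± 0.0917 (adjusted p 0.0345), and this call was lost when MCF10AT1 replicate 1 or 2 or MCF10Ca1a replicate 1 or 2 was left out (adjusted p 0.0605 to 0.0928), and also with DESeq2 (adjusted p 0.0718) and with length-scaled or scaled counts (adjusted p 0.311 and 0.388). On TPM, which divides by transcript length, MMP14 was higher in MCF10Ca1a than in MCF10AT1 instead (log2 0.17, adjusted p 0.302). Beside this, the short retained-intron transcript MMP14-202 took 18.3% ± 0.35 of the gene's TPM in MCF10A, 23.1% ± 0.88 in MCF10AT1 and 32.4% ± 2.29 in MCF10Ca1a, while the coding MMP14-201 took 77.4%, 71.5% and 65.7%. The part of this shift in the difference between the scales was not tested.

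MMP17, a protease anchored to the membrane by a lipid, rose and then fell. MMP17 CPM was 3.49, 3.45 and 3.5 in MCF10A, 5.71, 5.52 and 5.99 in the MCF10AT1 libraries, and 1.01, 0.981 and 1.44 in MCF10Ca1a, with no overlap between lines. The rise in MCF10AT1 was 1.65-fold (log2 0.72 ± 0.111, adjusted p 7.27e-05), and the fall from MCF10AT1 to MCF10Ca1a was 5.01-fold (log2 -2.33 ± 0.137, adjusted p 1.80e-09). The split of MMP17 reads between its coding transcripts MMP17-201 and MMP17-206 varied from library to library within a line, from 0% to 68.4% for MMP17-201 in MCF10Ca1a. MMP15, a membrane-type protease with a transmembrane anchor, had CPM of 3.37, 2.70 and 2.59 in MCF10A, 3.51, 3.58 and 3.22 in the MCF10AT1 libraries, and 1.12, 0.921 and 1.21 in MCF10Ca1a. MCF10Ca1a lay below both other lines, with a 3.16-fold fall against MCF10AT1 (log2 -1.66 ± 0.154, adjusted p 2.22e-07). The MCF10A and MCF10AT1 libraries overlapped (log2 0.25, 95% interval -0.06 to 0.56, adjusted p 0.104), and the difference passed the threshold without MCF10A replicate 1 (log2 0.38, adjusted p 0.0165).

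MMP16, MMP24 and MMP25, the other membrane-type genes, stayed below 1 TPM and shared a dip in MCF10AT1. Mean CPM of MMP16 was 1.19 ± 0.127 in MCF10A, 0.336 ± 0.0981 in MCF10AT1 and 1.53 ± 0.249 in MCF10Ca1a. MMP25 had means of 0.880 ± 0.174, 0.121 ± 0.0637 and 1.19 ± 0.328 CPM, and MMP24 of 0.330 ± 0.109, 0.109 ± 0.0349 and 0.574 ± 0.119 CPM. All 3 were called lower in MCF10AT1 than in MCF10A (log2 -1.81, -2.82 and -1.59) and higher in MCF10Ca1a than in MCF10AT1 (log2 2.17, 3.26 and 2.39). The fall of MMP24 in MCF10AT1 was not called by limma on TPM (adjusted p 0.0731 to 0.197). MMP16 in MCF10Ca1a against MCF10A (log2 0.36, adjusted p 0.113) passed the threshold after thinning (adjusted p 0.0424) and with unfiltered limma (adjusted p 0.0431). MCF10A and MCF10Ca1a overlapped for MMP24 and MMP25, and MMP24, called at log2 0.80 with an adjusted p of 0.0310, lost the call without MCF10A replicate 2 or 3 or MCF10Ca1a replicate 2 or 3 (adjusted p 0.0781 to 0.132). That MMP24 call was also lost with DESeq2 (adjusted p 0.0729), no filter (0.0696), length-scaled counts (0.0504), the filtered limma fits (0.0945 and 0.0823) and the replicate block (0.0527). MMP24 and MMP25 have transcripts on the opposite strand, MMP24OS with 1105 to 1935 counts and MMP25-AS1 with 51 to 125 counts, and how strand was handled in counting is not given in the sources used here.

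The gelatinases MMP2 and MMP9 cut denatured collagen and the collagen of basement membranes. MMP9 (chr20:46008908-46016561) had 1090, 915 and 936 counts in the MCF10A libraries, 1, 1 and 0 in MCF10AT1, and 3, 3 and 4 in MCF10Ca1a. In CPM these are 17.0, 14.1 and 13.4, then 0 to 0.0151, then 0.0838 to 0.113. MCF10A alone had more than 4 counts. From the summed counts, 2941 against 2, the MMP9 level in MCF10AT1 was 1440-fold below that in MCF10A, with a 95% counting interval of 399 to 11900, and edgeR gave an adjusted p of 5.06e-13. MCF10Ca1a was also below MCF10A (log2 -7.25 ± 0.206, adjusted p 7.65e-13). Between MCF10AT1 and MCF10Ca1a, 2 against 10 counts gave a 9.30-fold ratio with a counting interval of 1.98 to 87.3 (adjusted p 0.00212; not called by limma on log2(TPM + 1), adjusted p 0.602), at a level near the limit of 3 counts that a library at 0 allows.

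MMP2 (chr16:55389700-55506691) fell later in the series. MMP2 CPM was 11.2, 8.99 and 8.40 in MCF10A, 8.05, 8.41 and 8.07 in the MCF10AT1 libraries, and 0.363, 0.446 and 0.621 in MCF10Ca1a. The MCF10Ca1a libraries lay far below all others, at 13 to 22 counts. MMP2 fell 17.1-fold in MCF10Ca1a against MCF10AT1 (log2 -4.09 ± 0.175, adjusted p 6.50e-11) and 19.9-fold against MCF10A (adjusted p 2.35e-11). MCF10A and MCF10AT1 overlapped (log2 -0.22, 95% interval -0.48 to 0.05, adjusted p 0.0994), though leaving out MCF10A replicate 3 took the difference past the threshold (log2 -0.30, adjusted p 0.0277). The coding transcript MMP2-201 held 93.1% of the gene's TPM in MCF10A and 84.0% in MCF10AT1. In MCF10Ca1a it held 0%, 0% and 44.9% in the 3 libraries, on 13 to 22 counts for the gene. The fall of MMP2 was smaller on TPM, with means of 3.5 ± 0.858, 2.81 ± 0.133 and 0.271 ± 0.183. The stromal markers, whose sum was lowest in MCF10Ca1a and highest in MCF10AT1, did not move in step with MMP2 between MCF10A and MCF10AT1, and their part in its fall was not tested.

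**Figure D4:**
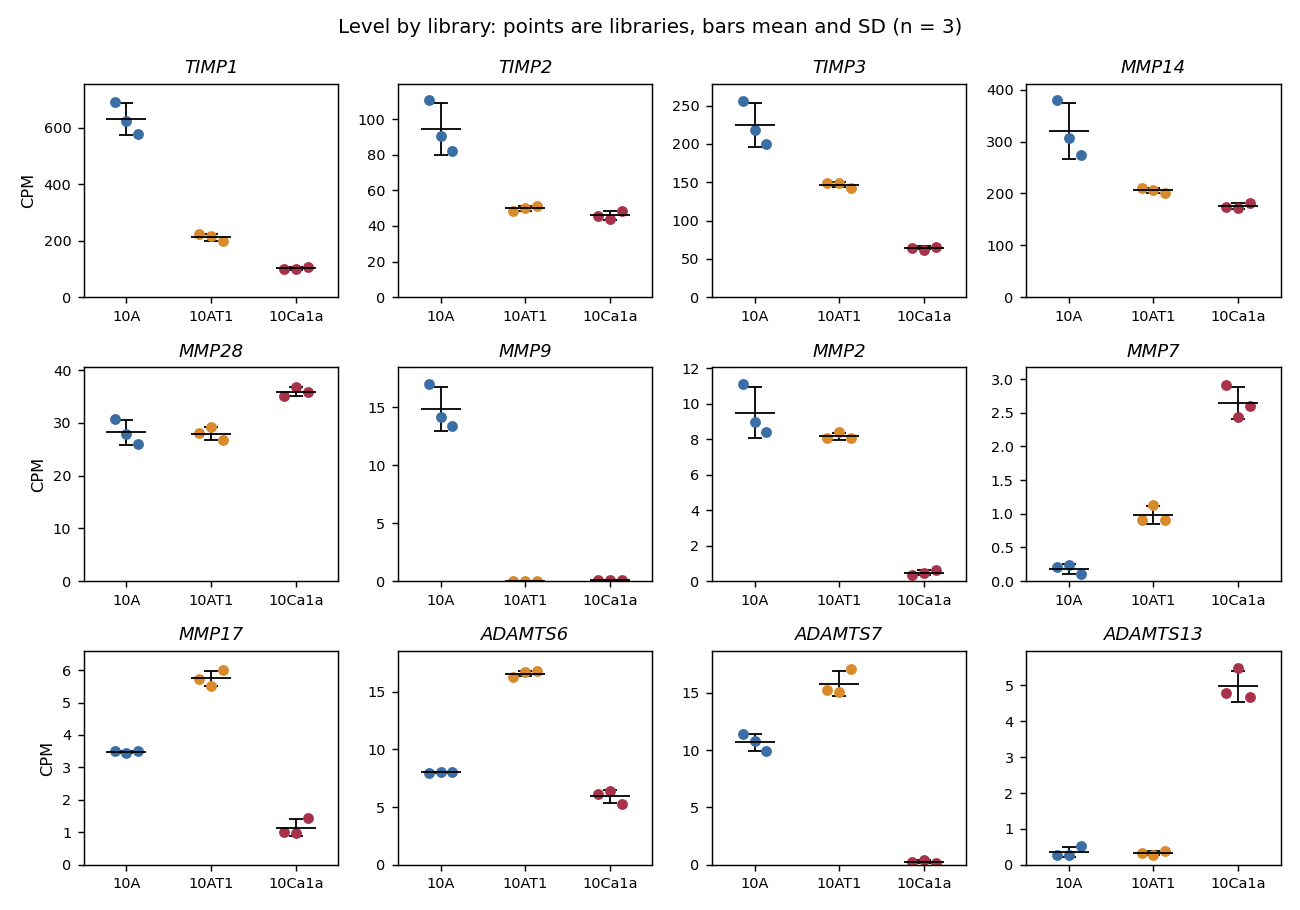
CPM (y axis, linear from 0) in each library of the lines MCF10A (10A), MCF10AT1 (10AT1) and MCF10Ca1a (10Ca1a) for 12 members, with mean and SD. TIMP1 and TIMP3 step down at each line, MMP9 is near 0 in both later lines, MMP2 and ADAMTS7 drop in MCF10Ca1a, and MMP7 and ADAMTS13 are highest there.

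MMP7, or matrilysin, is a small MMP without the hemopexin domain that epithelial cells make, and it cuts laminin, E-cadherin and other surface proteins. It lies on the minus strand at chr11:102520508-102530753, at the end of a cluster of 9 MMP genes. MMP7 CPM was 0.203, 0.232 and 0.10 in MCF10A, 0.900, 1.13 and 0.902 in the MCF10AT1 libraries, and 2.91, 2.44 and 2.60 in MCF10Ca1a. Each line lay above the line before it in every library, from 7 to 15 counts in MCF10A to 82 to 104 in the shallower MCF10Ca1a libraries. The rise was 5.48-fold in MCF10AT1 against MCF10A (log2 2.45 ± 0.254, adjusted p 1.68e-06) and 2.70-fold in MCF10Ca1a against MCF10AT1 (log2 1.43 ± 0.195, adjusted p 1.17e-05). Against MCF10A, MMP7 was 14.8-fold higher in MCF10Ca1a (adjusted p 2.70e-09). In TPM the mean went from 0.266 ± 0.109 to 1.31 ± 0.188 and 4.22 ± 0.406, which made it the third most abundant MMP in MCF10Ca1a.

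The 9 genes of the chromosome 11 cluster are, in chromosomal order, MMP7, MMP20, MMP27, MMP8, MMP10, MMP1, MMP3, MMP12 and MMP13, and they span chr11:102520508-102955734. MMP20, MMP27, MMP8 and MMP12 had at most 3 counts in any library. MMP13, a collagenase that cuts cartilage collagen, had 12, 18 and 9 counts in MCF10A, 3, 0 and 2 in the MCF10AT1 libraries, and 22, 24 and 23 in MCF10Ca1a. It was lower in MCF10AT1 than in MCF10A (7.66-fold from summed counts, counting interval 3.02 to 24.9) and 25.7-fold higher in MCF10Ca1a than in MCF10AT1 (interval 10.5 to 81.5). The fitted log2 changes at these steps, -2.84 and 4.57, were -3.47 and 5.19 without MCF10AT1 replicate 1. Its fitted log2 change in MCF10Ca1a against MCF10A was 1.73 ± 0.369 (adjusted p 6.49e-04). MMP10, a stromelysin that can activate collagenases, averaged 1.05 ± 0.137, 0.690 ± 0.0955 and 0.783 ± 0.0955 CPM. It was called lower in MCF10AT1 than in MCF10A (log2 -0.61, adjusted p 0.0116), a call lost without MCF10A replicate 3 (adjusted p 0.0533). In MCF10Ca1a against MCF10A (log2 -0.43, adjusted p 0.0611) MMP10 passed the threshold without MCF10A replicate 1 (adjusted p 0.0397) or MCF10AT1 replicate 3 (adjusted p 0.0469). MMP1, the interstitial collagenase, had mean CPM of 0.278 ± 0.163, 0.216 ± 0.0237 and 0.410 ± 0.169 and was called in no comparison. MMP3 had 6 to 8, 6 to 19 and 1 to 2 counts per library and was not tested. Of the cluster, MMP7 rose at both steps and MMP13 fell and then rose.

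**Figure D5:**
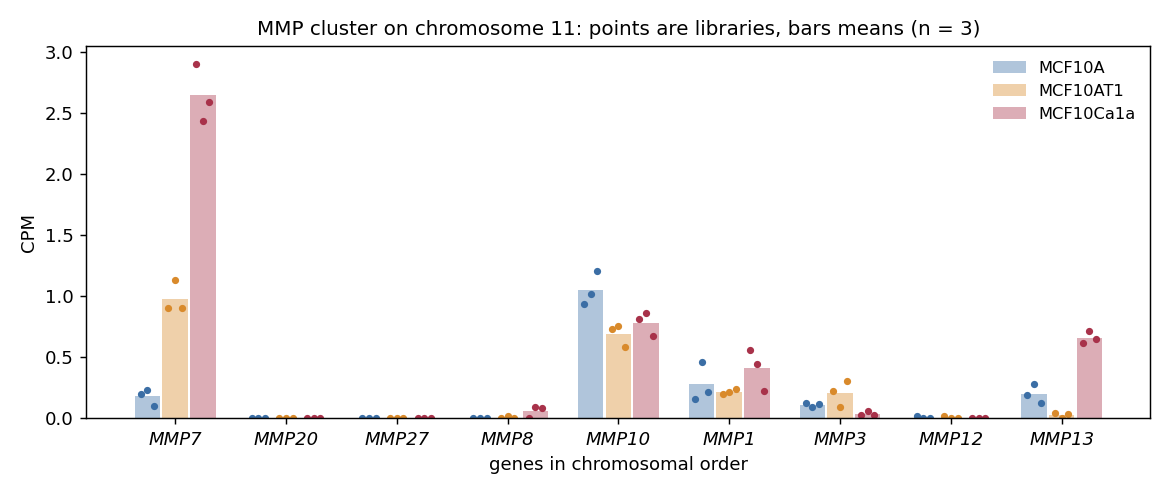
CPM (y axis) of the 9 MMP genes of the chromosome 11 cluster in chromosomal order (x axis); points are libraries and bars means of MCF10A, MCF10AT1 and MCF10Ca1a. MMP7 and MMP13 are highest in MCF10Ca1a, MMP10 is highest in MCF10A, and MMP20 and MMP27 are at 0 in all libraries.

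The remaining MMPs differed in level by orders of magnitude. MMP28, or epilysin, an MMP of epithelia with few known substrates, had CPM of 30.8, 27.8 and 25.9 in MCF10A, 28.0, 29.1 and 26.7 in the MCF10AT1 libraries, and 35.1, 36.9 and 35.8 in MCF10Ca1a. MCF10Ca1a lay above the other lines, by 1.29-fold against MCF10AT1 (log2 0.36 ± 0.0644, adjusted p 1.49e-04), and the others overlapped. With counts that the authors scaled for transcript length the difference was lost (log2 -0.03, adjusted p 0.729), and so was that against MCF10A (log2 0, adjusted p 0.965; limma on TPM, adjusted p 0.142 to 0.209), while the coding MMP28-201 took 24.9%, 21.3% and 35.9% of the gene's TPM in the 3 lines. MMP19, a broadly acting secreted MMP, had mean CPM of 2.27 ± 0.0871, 2.97 ± 0.208 and 3.70 ± 0.221. It was called higher at both steps, 1.31-fold (adjusted p 0.00709) and 1.24-fold (adjusted p 0.0177), the latter lost without MCF10AT1 replicate 2 (adjusted p 0.0880) or MCF10Ca1a replicate 3 (adjusted p 0.0700) and with no filter on low counts (adjusted p 0.2). The MMP19 rise at the earlier step was not called by limma on TPM (adjusted p 0.0991 to 0.193). MMP11, which unlike most MMPs leaves the cell already active, had 23, 34 and 14 counts in MCF10A, 4, 2 and 5 in the MCF10AT1 libraries, and 0 in all MCF10Ca1a libraries. MMP11 was thus at least 4.21-fold lower in MCF10Ca1a than in MCF10A, taking 3 counts per library as the floor, and between MCF10AT1 and MCF10Ca1a no fold above 1 can be given (a call lost without MCF10AT1 replicate 3, adjusted p 0.0505, and by limma on TPM, adjusted p 0.074 to 0.266). MMP11 overlaps CHCHD10 on the opposite strand, at up to 2265 counts.

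ADAMTS7 and ADAMTS12 are close relatives that cut cartilage oligomeric matrix protein. COMP itself, their named substrate, had 0 counts in all libraries. ADAMTS7 (chr15:78759203-78811431, minus strand) had CPM of 11.4, 10.8 and 9.90 in MCF10A, 15.2, 15.1 and 17.1 in the MCF10AT1 libraries, and 0.252, 0.416 and 0.197 in MCF10Ca1a. The 3 lines did not overlap, and MCF10Ca1a had 7 to 14 counts against 691 or more in every other library. ADAMTS7 rose 1.48-fold in MCF10AT1 against MCF10A (log2 0.56 ± 0.0870, adjusted p 7.34e-05) and fell 54.7-fold in MCF10Ca1a against MCF10AT1 (log2 -5.77 ± 0.159, adjusted p 1.06e-12). On TPM the ADAMTS7 fall was smaller, with means of 2.61 ± 0.382, 3.45 ± 0.364 and 0.106 ± 0.0906 and MCF10Ca1a replicate 2 at 0.211. The rise was not called with scaled counts (adjusted p 0.0504) or with limma on log2(TPM + 0.1) (adjusted p 0.274) or, with no filter, on log2(TPM + 1) (adjusted p 0.0933). The ADAMTS7 value is uncertain to the extent that reads could be shared with the copies ADAMTS7P1, ADAMTS7P3 and ADAMTS7P4, which had 1 to 15 counts in MCF10A and MCF10AT1 and at most 1 in MCF10Ca1a. ADAMTS12 had 153, 143 and 120 counts in MCF10A, 71, 78 and 76 in the MCF10AT1 libraries, and 0 in MCF10Ca1a. It was at least 13.5-fold lower in MCF10Ca1a than in MCF10AT1 and at least 24.5-fold lower than in MCF10A. The earlier fall, in MCF10AT1 against MCF10A, was 1.82-fold (log2 -0.86 ± 0.170, adjusted p 9.00e-04) and was not called with scaled counts (log2 -0.94, adjusted p 0.0785).

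ADAMTS13 cuts von Willebrand factor and is best known as a plasma protein made in liver. ADAMTS13 CPM was 0.281, 0.278 and 0.516 in MCF10A, 0.330, 0.287 and 0.387 in the MCF10AT1 libraries, and 4.78, 5.47 and 4.68 in MCF10Ca1a. MCF10Ca1a lay above all other libraries, with a 14.8-fold rise against MCF10AT1 (log2 3.89 ± 0.215, adjusted p 9.38e-10) and a 13.7-fold rise against MCF10A (log2 3.78 ± 0.212, adjusted p 8.52e-10). On TPM the rise was larger, with ADAMTS13 means of 0.0911 ± 0.0293, 0.102 ± 0.0389 and 2.31 ± 0.289 in the 3 lines. MCF10A and MCF10AT1 overlapped (log2 -0.11, 95% interval -0.76 to 0.53, adjusted p 0.733). The coding transcript ADAMTS13-206 took 83.5% ± 15.2 of the gene's TPM in MCF10A, from 15 to 31 counts, and 32.9% ± 9.65 in MCF10Ca1a, where the coding ADAMTS13-203 took 31.7% and the decay-prone ADAMTS13-209 took 16.4%. The locus overlaps REXO4 on the opposite strand, at up to 3709 counts per library and 24.2, 21.5 and 34.7 TPM in the 3 lines. PECAM1 was also highest in MCF10Ca1a, at 18.7 ± 2.74 TPM against 0.626 ± 0.0997 in MCF10A, while CDH5 and VWF were at or near 0 there. The remaining endothelial marker, KDR, went the other way, from 30 to 42 counts in MCF10A to 0 or 1 in MCF10Ca1a (log2 -5.59, adjusted p 9.42e-07).

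ADAMTS6, a relative of ADAMTS10 that acts on microfibrils, was higher in MCF10AT1 than in either other line. ADAMTS6 CPM was 8.0, 8.03 and 8.05 in MCF10A, 16.3, 16.7 and 16.8 in the MCF10AT1 libraries, and 6.15, 6.39 and 5.30 in MCF10Ca1a. No libraries of different lines overlapped in CPM. MCF10A and MCF10Ca1a overlapped on TPM, and the ADAMTS6 call between them (log2 -0.43, adjusted p 1.41e-04) was not made by limma on TPM (adjusted p 0.0633 to 0.11). The rise in MCF10AT1 was 2.06-fold (log2 1.05 ± 0.0685, adjusted p 1.53e-08), and the fall to MCF10Ca1a 2.79-fold (log2 -1.48 ± 0.0749, adjusted p 3.69e-10). The proteoglycan-cutting ADAMTS1 and ADAMTS15 had the same course at lower levels. ADAMTS1 averaged 1.49 ± 0.319, 3.31 ± 0.252 and 0.457 ± 0.0644 CPM, and ADAMTS15 1.87 ± 0.376, 2.77 ± 0.307 and 0.603 ± 0.160 CPM. Both were called higher in MCF10AT1 than in MCF10A (log2 1.15 and 0.57) and lower in MCF10Ca1a than in MCF10AT1 (log2 -2.85 and -2.20). The rise of ADAMTS15 lost its call without MCF10A replicate 2 (adjusted p 0.0563) or MCF10AT1 replicate 1 (adjusted p 0.0522), with scaled counts (adjusted p 0.162) and by limma on TPM (adjusted p 0.168 to 0.24). ADAMTS4, an aggrecan-cutting enzyme, went the other way, with 11, 17 and 13 counts in MCF10A, 0, 1 and 1 in the MCF10AT1 libraries, and 11, 6 and 11 in MCF10Ca1a. From summed counts it was 20.1-fold lower in MCF10AT1 than in MCF10A (counting interval 5.23 to 172), a call that limma on log2(TPM + 1) with no filter did not make (adjusted p 0.0585). ADAMTS9 was called in no comparison, and ADAMTS3 and ADAMTS17, both under 1 CPM in all libraries, were called lower in MCF10Ca1a than in MCF10A. Versican, a substrate of several of these enzymes, fell in MCF10Ca1a against MCF10A from 19.6 ± 3.70 to 0.0597 ± 0.0182 TPM (VCAN, log2 -8.09, adjusted p 2.23e-14).

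The 19 members not tested had at most 19 counts in any library. MMP20, MMP26, MMP27, ADAMTS8 and ADAMTS10 had 0 counts in all 9 libraries. MMP12, MMP21, ADAMTS5 and TIMP4 reached 1 count, ADAMTS18 2, MMP8 3, ADAMTS2 and ADAMTS20 4, MMP23B 6, MMP23A 7, ADAMTS19 8, ADAMTS14 and ADAMTS16 10, and MMP3 19. ADAMTS16, a protease known from blood pressure studies, had 4 to 10 counts in the MCF10Ca1a libraries and 0 or 1 elsewhere. MMP23A and MMP23B are near-identical copies, the former annotated as a pseudogene, so their counts may be split between them. Most of these genes belong to roles known from other tissues, such as the enamel protease MMP20 and the neutrophil collagenase MMP8.

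Other genes of the pathway were taken from lists of activators, inhibitors, partners and substrates. Their counts in MCF10Ca1a against MCF10A stand beside 80.9% of all genes called (39.0% higher, 41.9% lower) and an all-gene median log2 fold change of -0.05. Among 9 tested activators and convertases, which cut MMP precursors or start the plasmin cascade, 8 were called in MCF10Ca1a against MCF10A, 4 higher and 4 lower. PLAT, tissue plasminogen activator, rose most (35.6 ± 7.19 to 230 ± 0.497 TPM, log2 2.66 ± 0.0872, adjusted p 3.08e-12), and the convertase PCSK6 fell most (10.5 ± 1.94 to 3.07 ± 0.171 TPM, log2 -1.88, adjusted p 3.16e-11). All 7 tested inhibitors other than TIMPs were called in that comparison, 2 higher and 5 lower. The cystatin CST6 rose from 4.72 ± 0.194 to 20.7 ± 1.61 TPM (log2 2.01, adjusted p 1.20e-09). TFPI2, an inhibitor of plasmin and matrix proteases, was called lower and had 10.2 ± 0.809 TPM in MCF10A, 0.0352 ± 0.0305 in MCF10AT1 and 0 in MCF10Ca1a. The median log2 fold change of these 7 inhibitors was -0.90.

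Of 10 cell surface partners, which hold or take up the proteases, 9 were called in MCF10Ca1a against MCF10A, 5 higher and 4 lower. TSPAN12, a tetraspanin partner of MMP14, rose from 0.0273 to 1.45 TPM (log2 5.81 ± 0.317, adjusted p 6.27e-10), and CD151, another tetraspanin, fell from 249 ± 44.8 to 109 ± 3.38 TPM (log2 -1.29, adjusted p 1.06e-09). Among 9 tested ADAM proteases, membrane-bound relatives of the ADAMTS family, 6 were higher and 2 lower, with ADAM15 rising 192 ± 31.6 to 392 ± 5.91 TPM (log2 1.02, adjusted p 1.05e-08) and ADAM8 falling from 4.80 ± 0.548 to 1.76 ± 0.403 TPM (log2 -1.67). The 5 tested ADAMTS-like genes, which lack the protease domain, had 1 higher (THSD4, log2 0.19, adjusted p 0.0456) and 3 lower, ADAMTSL5 among them (log2 -0.88, adjusted p 1.92e-05). Of 13 tested matrix substrates, 3 were higher and 6 lower, and the perlecan gene HSPG2 rose from 7.93 ± 0.268 to 48.7 ± 3.02 TPM (log2 2.70, adjusted p 7.51e-12). All 16 transcription factors with known sites in MMP promoters were called, 9 higher and 7 lower, from FOSL2 (16.6 ± 2.78 to 67.4 ± 1.34 TPM, log2 1.93) to RUNX2 (2.62 ± 0.266 to 1.09 ± 0.168 TPM, log2 -1.55). In MCF10AT1 against MCF10A, the counts called over the 7 lists in the same order were 6 of 9, 7 of 7, 9 of 10, 8 of 9, 2 of 5, 10 of 13 and 14 of 16, beside 61.6% of all genes. In MCF10Ca1a against MCF10AT1 they were 9, 6, 10, 6, 4, 13 and 12, beside 78.4%.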

How the data were processed

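Polyadenylated RNA was sequenced from 3 libraries of each of 3 lines with a stranded kit, per the labels. The submitters' processing notes name Salmon and hg38; their versions, roles and the annotation are not given in the sources used here. The authors deposited estimated counts per gene and per transcript, 2 further sets of gene counts (scaled and length-scaled), and TPM. Estimated counts were rounded, filtered (edgeR filterByExpr by line, minimum count 10, minimum total 15; 17910 genes left) and tested with edgeR 4.0.16 (R 4.3.3), TMM scaling (factors 0.978 to 1.02) and all 9 libraries in 1 fit. Levels across genes are the deposited TPM values. Members and lists were chosen with earlier results of these data known. The rule for values in every library took members called with a 2-fold change and at least 1 TPM in a line, and all TIMPs; MMP14 and MMP28 were added for their abundance, and the lower members given by counts were chosen after their values were seen. Counting intervals (95%) and the floor of 3 counts cover counting error only. Replicates of a line differed by more than sampling noise (chi-square per degree of freedom 2.51 to 74.84). On simulated data for MCF10AT1 against MCF10A, edgeR recovered 96 of 100 genes changed 2-fold and 100 of 100 changed by log2 2, with 18 false calls among 17422 genes. The changed genes were drawn only from genes above a minimum mean count that several tested members do not reach. Recovery of changes in members with low counts was therefore not measured. Alternatives were DESeq2 1.42.0, limma 3.58.1 on log2(TPM + 1) or log2(TPM + 0.1), other filters, scalings and deposited counts, thinning, and leaving out each library. Gene positions are from GENCODE 29 by unversioned identifier (47 of 47 matched).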

Additional observations from a re-analysis of the deposited data

How the results depend on the processing

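The count of members called was 21, 23 and 22 in MCF10AT1 against MCF10A, MCF10Ca1a against MCF10AT1 and MCF10Ca1a against MCF10A, and 14, 17 and 17 with scaled counts, the fewest of the 20 alternatives; 14 is 1.5 times below 21. In the first, limma gave 15 or 16 and thinning 18, and with no filter the counts were 23, 28 and 25. Leaving out each library gave 20 to 23, 23 to 27 and 20 to 24 members. With 2 libraries in a line the filter lets more genes be tested. Over all genes, the main fit called 11025, 14034 and 14491 of 17910. Scaled counts called 9555, 13292 and 13879 of 18927 genes, and the fit with no filter 11649, 15312 and 16050 of 32399. In the first comparison thinning called 10015 of 16350 genes. The filtered limma fits there called 9282 and 9447 of 21551 genes, and the unfiltered one 8892 of 32434. Counts of members called at least 2-fold ran from 11 to 13, 21 to 23 and 16 to 19 without a library. They fell from 12 to 3 with limma on log2(TPM + 1), with or without a filter, and to 7 on log2(TPM + 0.1), from 20 to 5 and from 17 to 7 on log2(TPM + 1), with or without a filter; these fits change the unit and the test as well as the constant, and the cause was not tested. The median log2 change of all genes in MCF10Ca1a against MCF10AT1 was 0.11 or 0.23 in the filtered limma fits (21551 genes), by the constant added, and -0.04 in edgeR (17910 genes); with no filter it was 0.01 and 0, so these fits differ in genes as well as scale. The summed TIMP over MMP quotient was 2.47, 1.59 and 0.938 on CPM and 24.4, 9.51 and 4.83 without MMP14 for MCF10A, MCF10AT1 and MCF10Ca1a, 2 alternatives chosen after seeing the data; without a library it was 8.04 to 8.43, 3.77 to 3.94 and 1.92 to 2.00.

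Small differences changed sign. MMP28 in MCF10AT1 against MCF10A, reported at log2 -0.01, was 0 without a filter, 0.03 with length-scaled and with scaled counts, 0.02 with only the lines compared, 0.01 after thinning, 0.06 without MCF10A replicate 1 and 0.02 without MCF10AT1 replicate 3, and ran from -0.07 to 0.06 over the left-out libraries. ADAMTS13 in that comparison was 0.27 with length-scaled counts, 0.26 with scaled counts, 0.01, 0.07 and 0.01 with limma, and 0.25 without MCF10A replicate 3, and ran from -0.27 to 0.25 over the left-out libraries. In MCF10Ca1a against MCF10AT1, MMP28 was -0.03 and -0.02 with length-scaled and scaled counts, MMP14 0.17 in all 3 limma fits (its ratio of mean levels was -0.23 on CPM), and TIMP2 0.13, 0.14 and 0.13. The cause was not tested. The same replicate numbers did not pair the libraries: correlations of deviations ran from -0.0597 to 0.0451, and 3 of 18 comparisons were best with the own number. With the replicate block the 2-fold count in MCF10Ca1a against MCF10AT1 was 20, as without it, and MMP24 in MCF10Ca1a against MCF10A lost its call (log2 0.81, adjusted p 0.0527). At these depths a member at 0 counts in a library may have had up to 3.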
